A study of Mus musculus with 7 samples.

Results

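The genes described here are 10 genes of zinc handling in mouse pancreatic alpha cells: 5 members of the Slc30 family (Slc30a1, Slc30a2, Slc30a5, Slc30a7 and Slc30a8), 3 members of the Slc39 family (Slc39a5, Slc39a8 and Slc39a14) and the metallothioneins Mt1 and Mt2. They were chosen by symbol, and all 10 were found among the 55536 genes of the count table. RNA was sequenced from alpha cells sorted from islets by tdTomato fluorescence. The 4 control libraries had the genotype Nkx2.2+/+;Gcg-iCre;Rosa26:tdTomato and the 3 knockout (KO) libraries Nkx2.2fl/fl;Gcg-iCre;Rosa26:tdTomato, so that both groups carried a Cre driven from the glucagon gene together with the reporter. The series' design text gives the strain as C57B1/6J. The ages of the mice, and whether a library came from 1 animal or a pool, are not given in the labels.

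Cells keep free zinc very low in the cytosol and move it with 2 families of transporters that work in opposite directions. Slc30 proteins (ZnT) carry zinc out of the cytosol, across the plasma membrane or into vesicles and the Golgi. Slc39 proteins (ZIP) carry it into the cytosol. Metallothioneins are small cysteine-rich proteins that bind the metal, and the metal-sensing transcription factor MTF-1 raises their transcription when zinc rises. Islet endocrine cells are rich in zinc because ZnT8, the product of Slc30a8, loads it into secretory granules, where in beta cells it crystallises with insulin.

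Libraries held from 45483504 to 72456557 counts. Values by library are listed below in a fixed order, controls 1 to 4 first, then KO 1, then KO 2, and last a KO library whose column header has the number 4. No KO title has that number, although a control does, so this library is called unnumbered. Glucagon transcripts made up 11.4% to 13.5% of the control libraries and 5.87% to 7.39% of the KO libraries, and the groups did not overlap. Among alpha cell markers, Gcg, Ttr, Irx1, Irx2 and Slc38a5 fell in KO. Normalized counts, which are counts divided by the DESeq2 size factor of the library, of the targeted gene Nkx2-2 averaged 10468 ± 1618 over the controls (SD, n = 4) and 7662 ± 115 over the KO libraries (SD, n = 3). Nkx2-2 fell by 0.45 on the log2 scale (SE 0.13), with an adjusted p of 0.0218 by DESeq2 and 0.152 by edgeR. The DESeq2 call for Nkx2-2 was lost without control 2 (adjusted p 0.0856), control 3 (0.121), KO 1 (0.156), KO 2 (0.120) or the unnumbered KO library (0.0695). The labels do not say which exons are deleted, so counts over the whole gene check the genotype only in part. Control 4 stood apart in its counts for genes covered by exons of the opposite strand, which touches Mt2 below. Control 4, the deepest library, also had 31024 genes with at least 1 count. The other libraries had 23150 to 25873, the highest being the unnumbered KO library, which was next in depth.

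Per kilobase of exon, Slc30a8 was by far the most abundant of the 10 genes. It stood at 15226 ± 1650 normalized counts per kilobase in controls (SD, n = 4) and 12063 ± 901 in KO (SD, n = 3). Slc30a8 held 75.6% ± 5.17 (SD over 7 libraries) of the summed level of the 10 genes, and 71.6% ± 5.56 when the longest transcript was taken as the length. Mt1 followed, with 2340 ± 392 per kilobase in controls and 2517 ± 120 in KO. Mt2 came next, with 775 ± 462 and 1191 ± 12.4, then Slc30a5 with 380 ± 20.9 and 422 ± 22.5. Slc30a1 stood at 287 ± 82.6 and 306 ± 7.06 per kilobase, Slc30a7 at 176 ± 6.69 and 193 ± 12.7, and Slc39a14 at 132 ± 15.4 and 132 ± 11.7. In this order Slc30a5, Slc30a1, Slc30a7 and Slc39a14 did not overlap in KO. In controls Mt2 reached down to 128 per kilobase in control 4, below every library's level of Slc30a5, Slc30a1 and Slc30a7, and the highest control of Slc30a1 (365) overlapped the lowest of Slc30a5 (354). Slc39a8 was near the bottom with 6.69 ± 0.680 per kilobase in controls and 12.6 ± 3.08 in KO. Slc39a5 and Slc30a2 were barely detected.

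**Figure D1:**
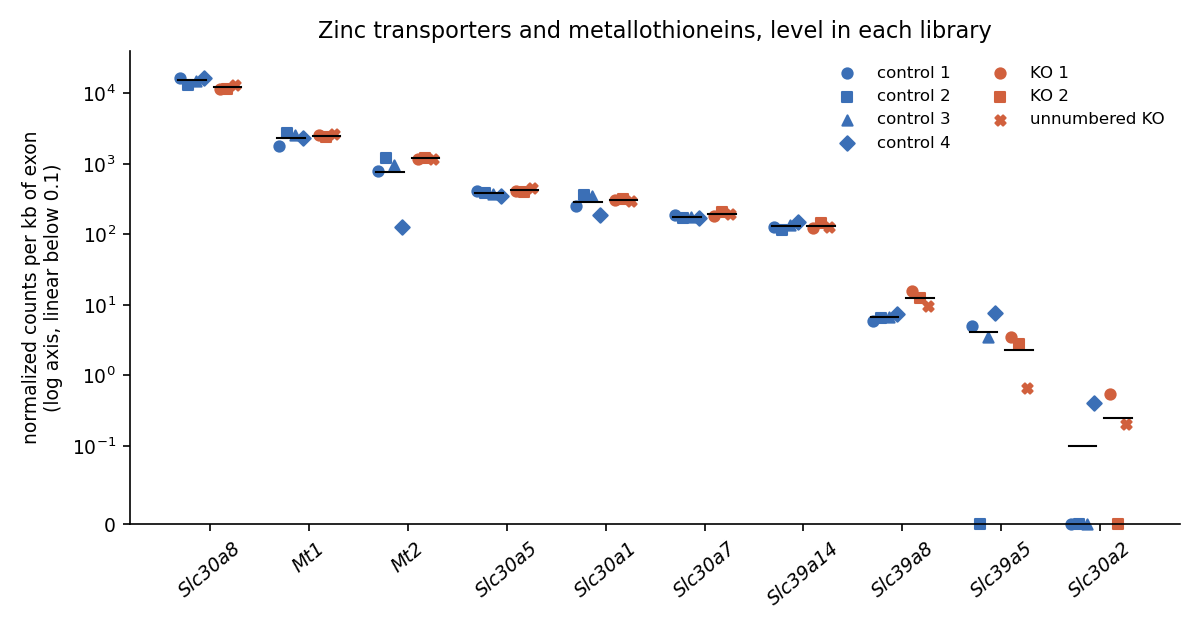
Level of each of the 10 genes in every library, as normalized counts per kilobase of merged exons on a log axis that is linear below 0.1. Each point is 1 library (blue, control; orange, KO) and the bars are group means; Slc30a8 lies above all other genes in all 7 libraries, and control 4 lies far below the others for Mt2.

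Deletion of Nkx2-2 was compared with control by DESeq2 over the whole table, and a gene was called when its p-value adjusted over all genes was under 0.05. None of the 10 genes was called. DESeq2 gave an adjusted p to 8 of them, Slc30a2 and Slc39a5 being too low, and edgeR called 0 of the same 8. In all, DESeq2 called 4.51% of the 17571 genes tested, 394 (2.24%) higher and 398 (2.27%) lower in KO, and edgeR called 1.05% of 19310. The DESeq2 split was uneven under another scaling (684 higher and 297 lower when libraries were scaled to their totals). In each tool 2 of 8 had an unadjusted p under 0.05, Slc30a8 and Slc39a8, where by DESeq2 12.2% of all genes tested had such a p. The same 2 genes had KO and control libraries that did not overlap, as did 12.0% of all genes tested. The median log2 fold change was 0.12 over the 8 genes and 0.01 over all genes tested.

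**Figure D2:**
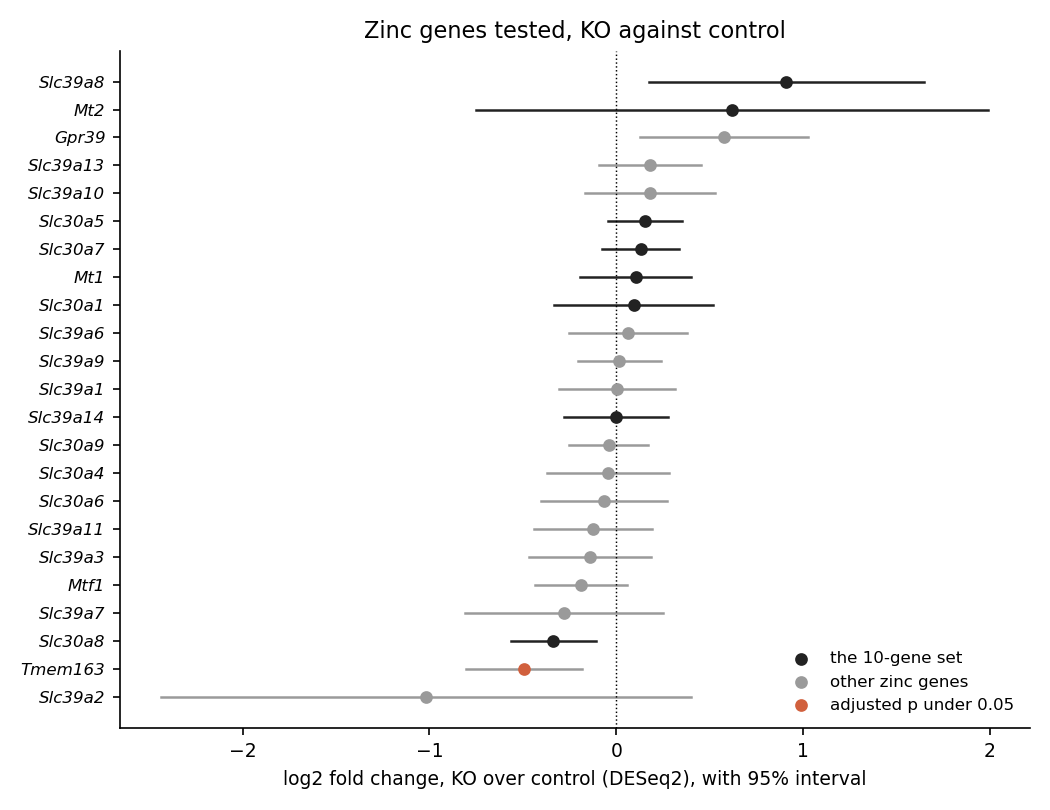
DESeq2 log2 fold change (KO over control) of each zinc gene tested, with its 95% interval (not adjusted for the number of genes). Black marks the 8 tested genes of the 10-gene set, grey the other zinc genes, and orange the 1 gene with an adjusted p under 0.05, Tmem163, at -0.50.

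Slc30a8 (ENSMUSG00000022315, chromosome 15, 52295553 to 52335798, plus strand) encodes the granule zinc transporter ZnT8. Its normalized counts were 32691, 25880, 28944 and 32530 (control) against 22801, 22703 and 25827 (KO). Every KO library lay below every control, although the highest KO library and control 2 were nearly level. The KO mean was 79.2% of the control mean, with a log2 difference of -0.34 (SE 0.12, 95% interval -0.56 to -0.11), an unadjusted p of 0.00392 and an adjusted p of 0.0755 in DESeq2, and an adjusted p of 0.316 in edgeR. Single libraries moved it across the threshold. Without control 2 the log2 fold change was -0.40 and the adjusted p 0.0114, and without the unnumbered KO library they were -0.40 and 0.0386. It also passed without the 2 deepest libraries (adjusted p 0.0247) and with a block for replicates 1 and 2 of both groups (0.0315). With a block for all 3 numbers that the column headers of both groups share (1, 2 and 4), Slc30a8 fell by 0.35 on the log2 scale (SE 0.09, adjusted p 0.00334), a fit without control 3. In these 5 fits 2.22%, 1.70%, 2.56%, 1.50% and 2.30% of all genes tested were called lower, in that order. Over all 17 alternative fits the change kept its sign, and its adjusted p lay between 0.00334 and 0.551 and was under 0.05 in 5. The largest adjusted p came from scaling to library totals, which moved the median of all genes up by 0.10 and gave Slc30a8 a log2 fold change of -0.23.

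Beta cells also express Slc30a8 strongly, and the sorted libraries held insulin transcripts. The summed normalized counts of 8 beta cell markers, each of them detected, ran from 336739 to 690569 in controls and from 529402 to 973010 in KO. Ins2 made up most of the sum, with a mean of 357925 in controls and 454255 in KO, so the sum mainly follows this gene. All 8 markers had positive log2 fold changes, and 1, Iapp, passed the test, where DESeq2 called 2.24% of all genes tested higher. Of the 8, 4 had an unadjusted p under 0.05 in DESeq2, as did 12.2% of all genes tested. The beta cell sum was lowest in control 4 and highest in KO 1. Its part in the Slc30a8 levels was not tested. In bulk libraries such as these, fewer cells of a type and less RNA per cell cannot be told apart. Within the Slc30 family, Slc30a8 held 90.8% ± 1.57 (SD, n = 4) of the summed level per kilobase of 10 genes in controls and 88.3% ± 0.825 (SD, n = 3) in KO.

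**Figure D3:**
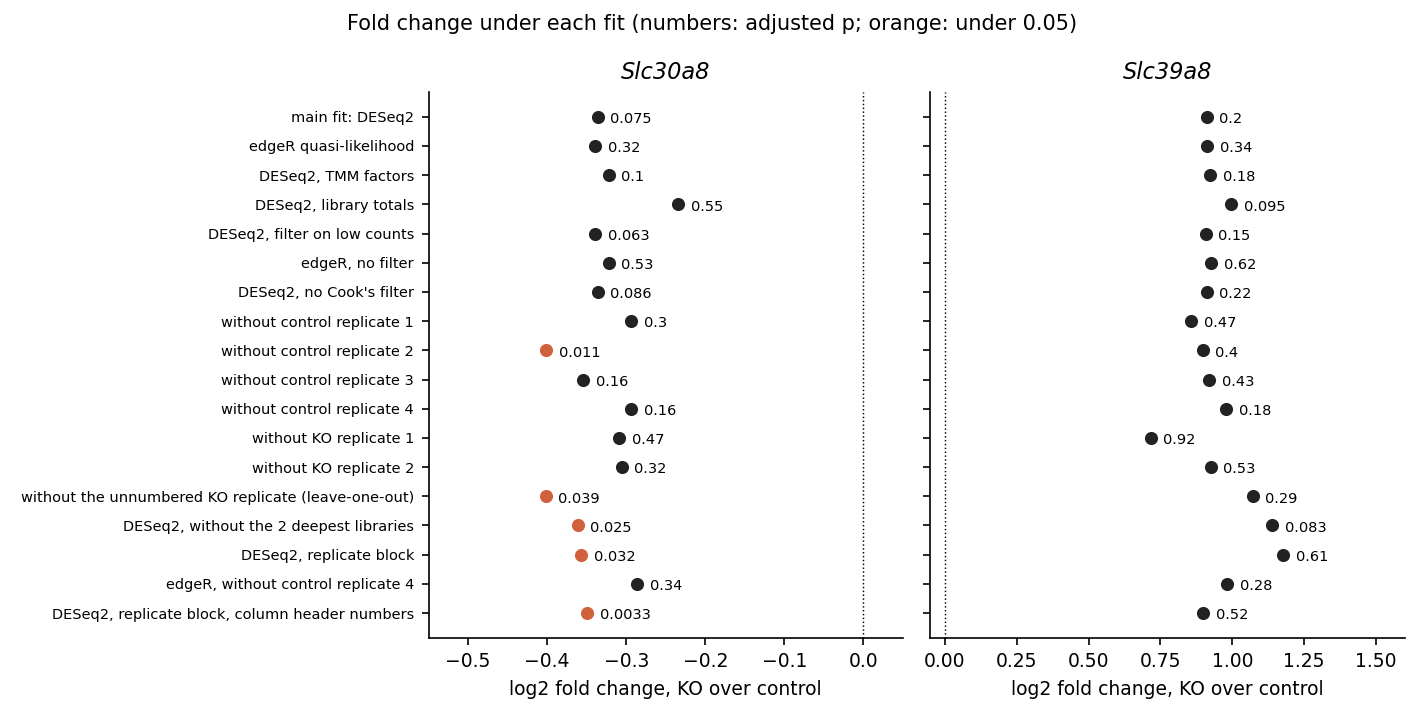
Log2 fold change (KO over control) of Slc30a8 (left) and Slc39a8 (right) under the DESeq2 fit with all 7 libraries, at the top, and the 17 alternatives. The number beside each point is its adjusted p, in orange when under 0.05; Slc30a8 stays below 0 throughout and is orange in 5 fits, and Slc39a8 stays above 0 and is orange in none.

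The other Slc30 transporters of the secretory pathway showed small differences. Slc30a5 (ENSMUSG00000021629, chromosome 13, 100802648 to 100833427, minus strand) encodes ZnT5, which works in the early secretory pathway in a complex with ZnT6 and supplies zinc to enzymes made there. Its normalized counts were 2958, 2773, 2760 and 2585 (control) against 3042, 2939 and 3261 (KO). Control 1 reached into the KO range. Slc30a5 had a log2 fold change of 0.15 (SE 0.10, 95% interval -0.04 to 0.35, DESeq2 adjusted p 0.664, edgeR adjusted p 0.645), so that the interval runs from 0.970-fold to 1.28-fold of the control level.

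Slc30a7 (ENSMUSG00000054414, chromosome 3, 115938973 to 116007406, minus strand) encodes the Golgi transporter ZnT7. Its normalized counts were 2066, 1921, 1941 and 1901 in controls and 2003, 2286 and 2142 in KO. The groups overlapped, at control 1 and KO 1. The log2 fold change was 0.13 (SE 0.10, 95% interval -0.07 to 0.34, DESeq2 adjusted p 0.803), and opposite-strand exons cover 16.0% of its exon length.

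Slc30a2 (ENSMUSG00000028836, chromosome 4, 134343181 to 134354484, plus strand) encodes ZnT2, a vesicular transporter best known from mammary gland and acinar cells. It had 2 counts in control 4, 2 in KO 1, 1 in the unnumbered KO library and 0 in the other libraries. All are under the floor of 3 counts, so no fold change is given.

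Slc30a1 (ENSMUSG00000037434, chromosome 1, 191906767 to 191913247, plus strand) encodes ZnT1, which exports zinc across the plasma membrane and whose transcription, like that of the metallothioneins, is raised by MTF-1. Its normalized counts were 1308, 1912, 1816 and 994 (control) against 1617, 1638 and 1566 (KO). The controls lay on both sides of the KO libraries, which were close to each other. The log2 fold change was 0.09 (SE 0.22, 95% interval -0.33 to 0.52, DESeq2 adjusted p 0.997), and without control 4, the lowest library, it was -0.06 (adjusted p 0.931). Opposite-strand exons of 1700034H15Rik cover 8.92% of the exon length of Slc30a1. Among 1772 genes with 5% to 20% of their exon length so covered, control 4 lay below the mean of the remaining libraries with a median difference of -0.16 on the log2 scale, and for Slc30a1 this difference was -0.71.

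The metallothionein genes lie side by side on chromosome 8. Mt1 (ENSMUSG00000031765, 94179082 to 94180327) and Mt2 (ENSMUSG00000031762, 94172664 to 94173568) are both on the plus strand. The sequences before the starts of Mt1, Mt2 and Slc30a1 are shown because these are the textbook MTF-1 targets of the set, and they show where the letters of a metal response element core occur. Each runs 5′ to 3′ on the plus strand of GRCm38.p6 (RefSeq promoter windows), up to the first annotated exon base of the gene in RefSeq or GENCODE. Capitals mark TGCGCNC or TGCACNC, the core that MTF-1 binds, on either strand.
Mt2, chr8:94172368-94172617: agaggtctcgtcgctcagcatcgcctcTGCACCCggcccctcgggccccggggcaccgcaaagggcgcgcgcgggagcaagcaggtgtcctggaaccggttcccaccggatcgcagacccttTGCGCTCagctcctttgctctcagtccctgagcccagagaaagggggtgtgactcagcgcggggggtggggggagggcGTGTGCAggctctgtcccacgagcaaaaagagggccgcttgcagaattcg
Mt1, chr8:94178839-94179081: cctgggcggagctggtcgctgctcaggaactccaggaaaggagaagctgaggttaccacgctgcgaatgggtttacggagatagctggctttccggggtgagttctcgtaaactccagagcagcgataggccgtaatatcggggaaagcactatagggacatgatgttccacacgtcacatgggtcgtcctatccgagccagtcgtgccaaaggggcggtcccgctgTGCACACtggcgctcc
Slc30a1, chr1:191906531-191906766: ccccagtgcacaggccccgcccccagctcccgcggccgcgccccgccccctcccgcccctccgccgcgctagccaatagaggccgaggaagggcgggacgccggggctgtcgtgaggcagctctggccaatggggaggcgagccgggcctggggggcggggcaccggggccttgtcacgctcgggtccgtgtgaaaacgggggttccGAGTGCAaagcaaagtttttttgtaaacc
In the full RefSeq window, from 250 bases before to 50 bases after the start, the core occurred 4 times for Mt2, 3 times for Mt1 and 2 times for Slc30a1. It was not particular to these genes: Slc30a2 also held 2, Slc30a5, Slc39a5 and Slc39a8 held 1 each, and Slc30a7 held 0. Of all 32851 windows of this length, 25.7% held at least 1 core, 7.11% at least 2, 1.97% at least 3 and 0.517% at least 4. RefSeq windows were matched for 8 of the 10 genes, not for Slc30a8 and Slc39a14. The consensus TNAAGTGG, to which NKX2-2 binds, occurred on either strand in none of the windows of these 8 genes and in 3.21% of all windows. Such a match, or its lack, describes the letters of this window only.

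Mt1 had 2229, 3352, 3151 and 2928 normalized counts (control) against 3171, 2972 and 3264 (KO). Control 1 was low, and the other 6 libraries were mixed by group. Mt1 had a log2 fold change of 0.11 (SE 0.15, 95% interval -0.19 to 0.40, DESeq2 adjusted p 0.974, edgeR adjusted p 0.920). Without control 1 it was -0.00428.

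Mt2 had 472, 709, 567 and 75.2 normalized counts (control) against 694, 708 and 699 (KO). The KO libraries lay within 1 narrow band just below control 2, and control 4 lay far below all others. The log2 fold change was 0.62 (SE 0.70, 95% interval -0.75 to 1.99, DESeq2 adjusted p 0.943, edgeR adjusted p 0.844). Leaving out control 4 gave 0.27 in DESeq2 (adjusted p 0.597) and 0.27 in edgeR (adjusted p 0.544). The block for the 3 shared header numbers gave 1.18 (adjusted p 0.709).

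Mt2 counts were 21.2%, 21.1%, 18.01% and 2.57% of Mt1 counts (control) against 21.9%, 23.8% and 21.4% (KO). The ratio thus stayed between 18.01% and 23.8% in 6 libraries and was lower in control 4 alone. Exons of the opposite-strand gene Gm45774 cover 73.5% of the exon length of Mt2 and none of that of Mt1. Among 174 genes with at least 50% of their exon length under opposite-strand exons and a mean of at least 50 normalized counts, control 4 had a median log2 deviation of -1.70 from the mean of the other libraries, while each of the other 6 libraries had a median from 0.31 to 0.43. Among 10095 genes with no such overlap the median of control 4 was -0.01. Gm45774 itself had 73 counts in control 4, and from 36 to 140 in the other libraries.

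Control 1 was the lowest control for Mt1, and for Mt2 and Slc30a1 it was lowest among controls 1 to 3, with control 2 the highest for all 3 genes. The KO libraries differed little for each of them. Glucocorticoids also raise metallothionein transcription, so genes of that response were examined, with genes that respond to cell dissociation. Of 8 glucocorticoid response genes tested, 0 were called, with 0 at an unadjusted p under 0.05 in DESeq2 and 0 called in edgeR, and their median log2 fold change was -0.00. Of all genes tested, DESeq2 called 4.51% and 12.2% had such an unadjusted p. Without control 2 there was 1 call among the 8, Zbtb16 (log2 fold change 1.31, adjusted p 0.0177), where that fit called 2.78% of all genes tested higher. Of 12 dissociation stress genes, 1 was called, higher in KO, where DESeq2 called 2.24% of all genes tested higher. It was the transcription factor gene Atf3 (log2 fold change 0.78, SE 0.19, DESeq2 adjusted p 0.00198, edgeR adjusted p 0.108). The median of the 12 was 0.27, against 0.01 over all genes tested, and 10 were positive. In DESeq2, 3 of the 12 (Atf3, Ier2 and Jun) had an unadjusted p under 0.05, as did 12.2% of all genes tested. With the block for the 3 shared header numbers 5 of the 12 were called, and 5.21% of all genes tested in that fit. The summed normalized counts of the 12 stress genes were lowest in control 1, at 334725, and reached 428107 in controls, against 420169 to 512731 in KO. Their part in the metallothionein levels was not tested.

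**Figure D4:**
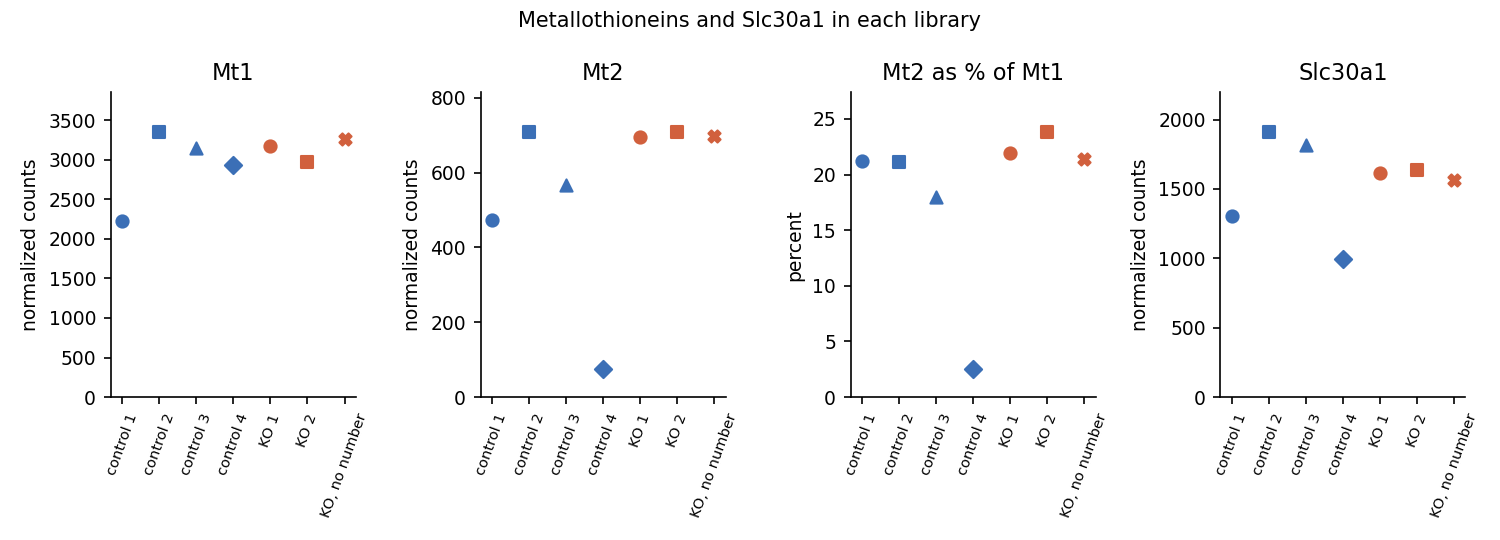
Normalized counts of Mt1, Mt2 and Slc30a1, and Mt2 as a percentage of Mt1, in each of the 7 libraries (blue, control; orange, KO; linear axes from 0). Mt2 and the ratio are low in control 4 (75.2 and 2.57%), the library in which genes under opposite-strand exons were low, while Mt1 in control 4 lies among the other libraries.

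Among the importers, Slc39a14 (ENSMUSG00000022094, chromosome 14, 70303469 to 70351425, minus strand), which encodes ZIP14, a plasma membrane transporter of zinc, iron and manganese, was level. Its normalized counts were 1325, 1211, 1450 and 1589 (control) against 1301, 1534 and 1346 (KO). All KO libraries fell within the control range. The log2 fold change was -0.00 (SE 0.14, DESeq2 adjusted p 0.999), and its 95% interval of -0.28 to 0.28 runs from 0.823-fold to 1.21-fold of the control level.

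Slc39a8 (ENSMUSG00000053897, chromosome 3, 135825279 to 135888572, plus strand) encodes ZIP8, a close relative of ZIP14 with similar substrates. Its normalized counts were 45.4, 49.5, 52.3 and 57.8 (control) against 121, 95.02 and 74.1 (KO). Every KO library lay above every control, and the KO libraries were spread more widely. The KO mean was 189% of the control mean, with a log2 fold change of 0.91 (SE 0.38, 95% interval 0.17 to 1.65), an unadjusted p of 0.0154 and an adjusted p of 0.197 in DESeq2, and an adjusted p of 0.344 in edgeR. Its adjusted p lay between 0.0832 and 0.915 in the 17 alternative fits and passed in none. The log2 fold change was smallest, at 0.72, without KO 1.

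ZIP8 is also made by endothelial cells and macrophages. The 5 endothelial markers tested summed to 204 to 356 normalized counts in controls and 153 to 936 in KO, with 0 called in either tool and 1, Cdh5, at an unadjusted p under 0.05 in DESeq2 (0.0441). Of all genes tested, DESeq2 called 4.51% and 12.2% had an unadjusted p under 0.05. All 5 endothelial markers had positive log2 fold changes, from 0.37 to 1.62 with a median of 0.73. The lowest endothelial sum of all 7 libraries was in KO 1, the library with the highest Slc39a8, and the highest was in KO 2. Of 7 leukocyte markers 3 were tested, and the 7 summed to 979 to 1545 in controls and 908 to 1040 in KO. C1qa made up most of the sum, with a mean of 976 in controls and 553 in KO, so the sum mainly follows this gene. It fell by 0.82 on the log2 scale (DESeq2 adjusted p 0.0113), and all other leukocyte markers had positive log2 fold changes. The log2 fold change was 1.55 for Cd74 (adjusted p 0.139, groups not overlapping) and 0.51 for Cd68 (adjusted p 0.905). For Ptprc, Lyz2, C1qb and Adgre1, too low for an adjusted p, it was 1.30, 0.53, 1.86 and 2.72. Their SEs ran from 1.48 to 1.78, and for each of them the groups overlapped. The part of these cells in the Slc39a8 difference was not tested.

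Slc39a5 (ENSMUSG00000039878, chromosome 10, 128395931 to 128401229, minus strand) encodes ZIP5, an importer of acinar and intestinal cells. Its raw counts were 10, 0, 6 and 24 (control) against 8, 6 and 2 (KO). The groups overlapped, and at this depth a difference was not detectable (log2 fold change -0.84, SE 1.39, no adjusted p). The 13 acinar markers summed to 963 normalized counts in control 4, the lowest of all, where Slc39a5 was highest, and to 16664 in control 3.

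The zinc genes outside the 10 were then counted to place these results. Of 21 such genes, 15 were tested, and 1 was called, lower in KO: Tmem163. DESeq2 called 2.27% of all genes tested lower. The median log2 fold change of the 15 was -0.05, against 0.01 over all genes tested. The zinc efflux transporter gene Tmem163 (ENSMUSG00000026347, chromosome 1, 127486546 to 127679548) had 1314, 1374, 1523 and 1342 normalized counts (control) against 1200, 885 and 870 (KO). All KO libraries were below all controls. It fell by 0.50 on the log2 scale (SE 0.16, DESeq2 adjusted p 0.0402), and in edgeR the adjusted p was 0.169. The call was lost without control 1 (adjusted p 0.104), control 2 (0.106), control 3 (0.216), KO 2 (0.294) or the unnumbered KO library (0.258), and with the block for the 3 shared header numbers (0.0998). It was also lost under scaling to library totals (log2 fold change -0.40, adjusted p 0.110), without the 2 deepest libraries (0.122) and with the block for replicates 1 and 2 (0.547).

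The zinc-sensing receptor gene Gpr39 had 442, 402, 467 and 264 normalized counts in controls and 558, 642 and 555 in KO, without overlap (log2 fold change 0.57, SE 0.23, DESeq2 adjusted p 0.170). It was called under scaling to library totals (adjusted p 0.0248) and in none of the other 16 alternatives. Opposite-strand exons cover 39.9% of its exon length, and its lowest library was control 4. Mtf1, which encodes MTF-1, averaged 2620 ± 227 normalized counts over controls (SD, n = 4) and 2302 ± 227 over KO libraries (SD, n = 3), a log2 fold change of -0.19 (adjusted p 0.678).

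In the Slc39 family the most abundant genes per kilobase were not those of the 10. Over 7 libraries Slc39a6 averaged 490 normalized counts per kilobase, Slc39a1 438, Slc39a3 421, Slc39a9 420 and Slc39a11 372, against 132 for Slc39a14. Slc39a10 and Slc39a13 had log2 fold changes of 0.18 each, and Slc39a3, Slc39a7 and Slc39a11 of -0.14, -0.28 and -0.13, none called. Slc39a2, at 23.1 ± 9.63 normalized counts in controls and 11.5 ± 1.93 in KO, had -1.02 (adjusted p 0.735). The remaining ZnT genes, Slc30a4, Slc30a6 and Slc30a9, lay between -0.06 and -0.04, with adjusted p-values of 0.998 each. Slc30a3, Slc30a10, Slc39a4, Slc39a12 and Mt3 were too low for an adjusted p, and Mt4 had 0 counts in every library.

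Genes that handle copper or iron gave 1 call among 9 tested, lower in KO, where DESeq2 called 2.27% of all genes tested lower. The median log2 fold change of the 9 was -0.20, against 0.01 over all genes tested. Slc31a2, a copper transporter gene, had 1186, 1198, 1190 and 1432 normalized counts in controls and 833, 1010 and 734 in KO. Control 4 was the highest library, and the groups did not overlap. It fell by 0.54 on the log2 scale (SE 0.16, DESeq2 adjusted p 0.0194, edgeR adjusted p 0.129), and the call was lost without control 1 (adjusted p 0.0622), control 3 (0.0626), control 4 (0.0512), KO 1 (0.212) or the unnumbered KO library (0.178). The remaining 8 genes lay between -0.27 and 0.25. Atp7a (0.25, DESeq2 adjusted p 0.222) and Slc31a1 (0.22, adjusted p 0.701) were higher in every KO library than in every control. Of the 9 genes, 3 thus had groups that did not overlap, as did 12.0% of all genes tested, and 7 had negative log2 fold changes.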

How the data were processed

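RNA from sorted alpha cells was sequenced in 7 libraries, per the labels' protocols with a stranded Takara kit (SMARTer, version 2) for low input, described as ribosomal RNA depleted though the molecule field reads polyA RNA. The authors deposited whole-number counts per gene. The submitters' processing notes list FastQC, STAR, featureCounts, DESeq2 and the build mm10; annotation and strand setting are not given in the sources used here. Coordinates and exon lengths are from GENCODE M21 (GRCm38), which holds all 55536 gene IDs. Of counts from 1 to 10, 84.4% to 88.9% were even in each library, and no counting intervals are given. The labels do not say that libraries came from separate animals, so p-values measure the spread between these libraries.

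KO was compared with control in DESeq2 1.42.0 (R 4.3.3, Wald test, no covariate), as the series' design text states, with Benjamini-Hochberg adjustment over all genes and a threshold of 0.05. The quasi-likelihood test of edgeR 4.0.16 (TMM, default filter) is printed beside it. Scripts were tested on simulated data. Alternatives changed normalization, filters, libraries and replicate block; edgeR without control 4 was added after the data were seen. Same-numbered column headers (1, 2 and 4) gave deviations from the group means that correlated at 0.23, 0.30 and 0.48; number 4 marks the 2 deepest libraries, KO 2 correlated more with control 3 (0.41), and the labels do not say what a number marks. A block for these 3 numbers was therefore added after the data were seen. Named genes were the 10, Nkx2-2, Gcg, other zinc genes and listed genes past the threshold. The 10 genes, lists and motifs were chosen with earlier results of these data known. Among markers of further cell types, Rbp4 (delta), Ppy and Pyy (gamma), Spp1 (duct) and Bhlha15 (acinar) rose. Of 6 mesenchymal and 4 Schwann cell genes 0 were called, where DESeq2 called 4.51% of all genes tested. The median log2 fold change was 0.40 for the mesenchymal genes, 5 of 6 being positive. For the Schwann cell genes it was -0.25, 3 of 4 being negative.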

Additional observations from a re-analysis of the deposited data

Results flagged for a closer look

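Among 15 genes whose 4 control values were examined by Dixon's test at the 95% level, 2 had 1 control value far from the remaining 3, where chance gives 0.75. Both were control 4. Slc30a2 had 1.45 normalized counts in control 4 and 0 in controls 1 to 3, which rests on 2 counts, under the floor of 3. Slc31a2 had 1432 normalized counts in control 4, above the 1186 to 1198 of the other controls.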

How the results depend on the processing

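With 792 genes called in DESeq2 over all libraries, edgeR called 203, edgeR with no filter 329 and edgeR without control 4 called 249; leaving out 1 library gave 430 to 907. Calls among the 10 genes numbered 0, and 0 to 1 when 1 library was left out, 1 without the 2 deepest libraries, 1 with the replicate block on numbers 1 and 2 and 1 with that on header numbers, each time Slc30a8. Calls among other zinc genes (1) were 0 to 1 without 1 library. They were 0 in all 3 edgeR fits, without the 2 deepest libraries and with either replicate block. Under library totals the 1 call was Gpr39, and Tmem163 lost its call. Copper and iron calls (1) were 0 to 1 without 1 library, 0 in the edgeR fits, without the 2 deepest libraries, with the block on numbers 1 and 2 and under library totals. Glucocorticoid calls (0) were 0 to 1 without 1 library. Stress gene calls (1) were 1 to 2 without 1 library, and 0 in edgeR with its filter, with or without control 4. They were 3 under library totals, 3 with the replicate block on numbers 1 and 2 and 5 with that on header numbers. Of all genes tested, these fits called 5.41%, 3.81% and 5.21%, in that order.

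Signs turned for 4 of the 10 genes. Slc30a1 (0.09) was -0.0625 without control 4, -0.0562 in edgeR without control 4 and -0.0474 without the 2 deepest libraries, with a range of -0.0625 to 0.23 without 1 library. Slc39a14 (-0.00) was 0.0124 with TMM factors, 0.0925 under library totals, 0.0130 in edgeR with no filter, 0.0209 without the unnumbered KO library, 0.0908 without the 2 deepest libraries, 0.15 and 0.0216 with the replicate block on numbers 1 and 2 or on header numbers, and 0.0760 in edgeR without control 4, and -0.0770 to 0.0694 without 1 library. Mt1 ranged from -0.00428 to 0.18 without 1 library. Slc39a5 (-0.84) was 0.13 without the 2 deepest libraries and 1.86 with the replicate block on numbers 1 and 2. The cause was not tested.

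The replicate block on numbers 1 and 2 used 4 libraries, called 578 genes and ended the Nkx2-2 call (adjusted p 0.0944). The replicate block on header numbers used 6 libraries and called 1008 genes, and Nkx2-2 kept its call (0.0198). Depth limits Slc30a2, Slc39a5 and Slc39a8. Without control 4 the SE of Mt2 went from 0.70 to 0.19 and that of Slc30a1 from 0.22 to 0.16.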
